A study of Homo sapiens with 6 samples.

Results

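Iron-sulfur clusters are cofactors of iron and inorganic sulfide that proteins of respiration, DNA repair, translation and tRNA modification hold at their active or structural sites. They are first built on a scaffold in the mitochondrial matrix from sulfur of cysteine, iron and electrons, and a separate cytosolic machinery, which depends on the mitochondrial one, builds and delivers clusters for cytosolic and nuclear proteins. PCBP1 is a poly C-binding protein that binds RNA and also acts as a cytosolic iron chaperone. The 30 genes described here were a fixed list of assembly factors, 19 of the mitochondrial and 11 of the cytosolic machinery, found by gene symbol among 62252 genes of the annotation. All 30 were found.

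Messenger RNA was sequenced from K562 cells, an established erythroid leukaemia line. Their parent was a single genome-edited clone with a landing site at the AAVS1 locus, and the line derived from it, maintained as a polyclonal population, carries a cassette for Flag-tagged PCBP1 under a tetracycline-responsive promoter. Both groups of cultures carried the cassette. The −Dox group (3 libraries, labelled Control) was not induced and the +Dox group (3 libraries, labelled PCBP1 OE) received doxycycline (Dox). Dose and duration of Dox for these libraries are not given in the sources used here. Since Dox and the transgene entered together, an effect of the drug and of PCBP1 OE cannot be told apart. Nothing in the labels says that the 3 libraries of a group came from separate cultures, so p-values measure only the spread between these libraries, which may be technical.

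The −Dox libraries held 84177316, 80104627 and 74766040 estimated counts and the +Dox libraries 70905656, 82263502 and 82449808. Single genes were tested on estimated counts with scaling for library size and composition (TMM), printed as CPM, while levels of different genes, sums over lists and ratios between genes are given in TPM, which is scaled for transcript length as well as for depth but not for composition. PCBP1 itself was at 247, 269 and 267 CPM in −Dox and 1029, 936 and 1037 CPM in +Dox, a log2 fold change of 1.94 (SE 0.06, n = 3 per group, edgeR adjusted p = 5.22e-10). The count of PCBP1 includes transgene reads where these match the annotated transcript. Erythroid markers were present, with GATA1 at 124 and 130 TPM and HBG1 at 6253 and 5801 TPM on average in −Dox and +Dox. Of the markers of other cell types, MS4A1 was at 0 CPM in every library and CD3E, CD2, CD79A, APOA1, COL1A2, DCN, CDH1 and ALB stayed below 1 CPM. The line nevertheless contained CD3D (49.9 and 44.2 TPM), COL1A1 (0.485 and 0.52 TPM), EPCAM (36.7 and 32.6 TPM) and KRT18 (167 and 150 TPM), none of which was called different. Of the 8 erythroid markers, 5 were called (62.5%, against 15.8% of all genes tested), among them KLF1 (log2 fold change 0.46) and TAL1 (0.44), which rose, and HBZ (−0.40) and TFRC (−0.34), which fell. Their summed level, led by HBG1, was 10790, 11111 and 10442 TPM in −Dox and 10125, 10039 and 9900 TPM in +Dox, and the part of these shifts in the results on assembly genes was not tested. In bulk RNA, fewer cells with a transcript and less of it per cell cannot be told apart.

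PCBP1 OE was accompanied by small differences in assembly genes, and 2 of 29 tested members passed the test. HSPA9, the mitochondrial Hsp70 chaperone that works on the cluster scaffold and in protein import, fell to 0.83 of its −Dox level, and LTO1, a cytosolic adapter subunit, fell to 0.825. No member was called higher, and none reached an absolute log2 fold change of 1 in any of the 17 settings run. BOLA1, with 4 to 10 counts per library, was below the filter of a mean count above 10 and was not tested. The 2 called members are 6.9% of those tested, against 15.8% of all 21045 genes tested (edgeR's quasi-likelihood test, Benjamini-Hochberg adjusted p under 0.05). The share of all genes called lower was 7.68% and called higher 8.16%, and 1.46% of genes were called with an absolute log2 fold change above 1, the limit of the study. At an unadjusted p under 0.05 there were 12 of 29 members (41.4%), against 28.6% of all genes. Median mean CPM was 37.35 over the tested members and 5.57 over all genes tested. Their median absolute log2 fold changes were 0.0872 and 0.18. The part of expression level in these shares was not tested.

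**Figure D1:**
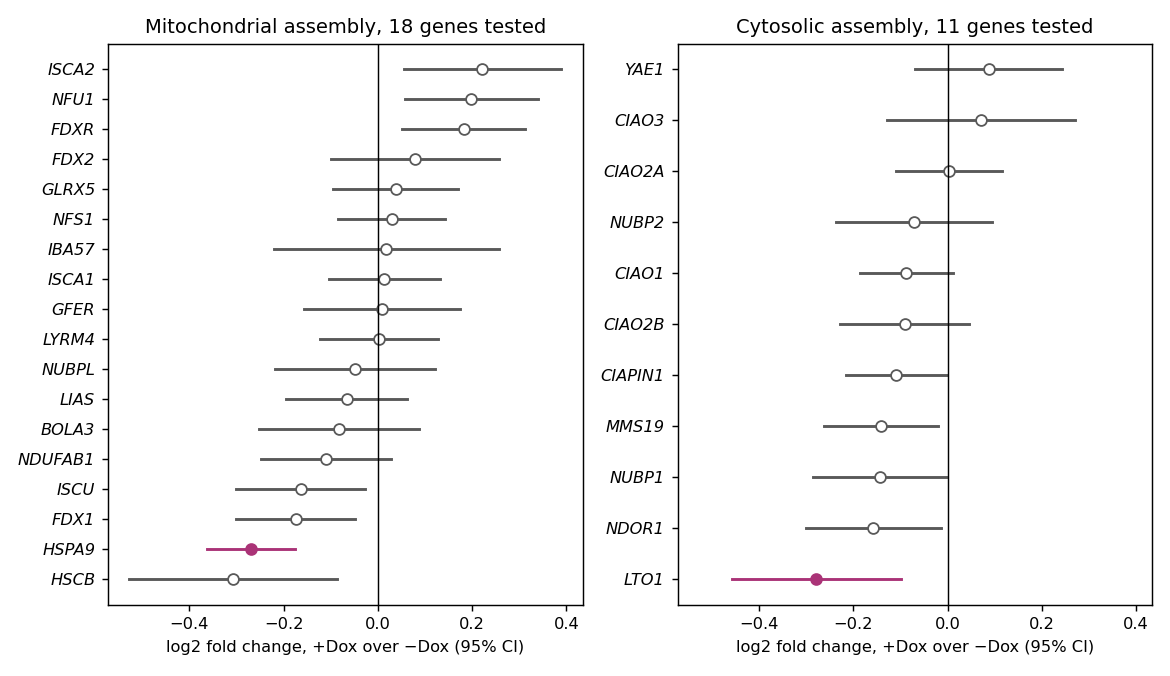
Log2 fold change (+Dox over −Dox, x axis) of each tested assembly gene, with its 95% confidence interval from edgeR, for 18 mitochondrial genes (left) and 11 cytosolic genes (right). Filled points mark HSPA9 and LTO1, the members with an adjusted p under 0.05, and every estimate lies between −0.31 and 0.22.

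How many members pass depended on the test. DESeq2, the tool of the study, called 2 members, HSPA9 and LTO1, when run with transcript length offsets on genes with a summed count above 10 (10.4% of all genes called). On the rounded counts of the 29 tested members, without length offsets, it called 7 (24.1%, against 18.7% of all genes), adding ISCU, FDX1 and HSCB as lower and FDXR and NFU1 as higher. With every gene of any count included, edgeR called 7 of 30 (23.3%, against 11% of all genes), with ISCA2 as higher in place of HSCB. HSPA9 was called in 17 of 17 settings and LTO1 in 11 of 17. In CPM, the 3 libraries of one group lay all above or all below the 3 of the other for 11 of the 29 members (37.9%), against 33.2% of all genes tested. For the 27 uncalled members the log2 fold change lay between −0.31 (HSCB) and 0.22 (ISCA2), and 28 of the 29 tested members had a 95% confidence interval within 0.5 of zero on the log2 scale. The remaining interval, that of HSCB, ran from −0.53 to −0.09.

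HSPA9 lies on chr5:138553756-138575675 (GRCh38, minus strand) and LTO1 on chr11:69653076-69675416 (GRCh38, minus strand). The 250 bases before the first annotated start of HSPA9 are shown because it was the member with the smallest p and was called in every setting run. The windows of all members were searched on both strands for 3 promoter motifs, namely an NRF1 core (GCATGCGC), an ETS core (CCGGAAG) and a CCAAT box (CCAAT). The HSPA9 window is chr5:138575676-138575925 (GRCh38), read on the minus strand, and holds no annotated exon.
HSPA9: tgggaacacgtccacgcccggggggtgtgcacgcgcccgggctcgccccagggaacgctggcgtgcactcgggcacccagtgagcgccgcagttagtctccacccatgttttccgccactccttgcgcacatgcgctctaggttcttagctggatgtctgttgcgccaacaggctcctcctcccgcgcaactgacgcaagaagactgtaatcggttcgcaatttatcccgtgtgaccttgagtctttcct
It holds none of the 3 motifs on either strand and is therefore in lower case throughout. Over 14051 protein-coding genes the NRF1 core occurred in 3.82% of such windows, the ETS core in 11.4% and the CCAAT box in 33.2%. Among the 30 members these were 2, 6 and 8 genes, that is 6.67%, 20% and 26.7%. The ETS core was in 3 mitochondrial (NFS1, FDX1, FDXR) and 3 cytosolic (CIAO1, NDOR1, YAE1) genes. Median GC content of the windows was 64% in the members and 61.6% in all genes. Matches of letters describe the windows and are no evidence of binding.

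Expression of the machinery spanned a wide range. The highest member was NDUFAB1, the mitochondrial acyl carrier protein that is part of the sulfur-donating complex and also a subunit of respiratory complex I, at 317, 328 and 339 TPM in −Dox and 301, 295 and 315 TPM in +Dox. HSPA9 followed at 318, 305 and 300 TPM in −Dox and 246, 258 and 238 TPM in +Dox. The range of HSPA9 over the 6 libraries overlapped those of NDUFAB1 above and of BOLA3 below it, so that its place is not resolved beyond their spread, while NDUFAB1 was above BOLA3 in every library. CIAO2A and CIAO2B, the leading cytosolic members, came next and apart from these. At the other end were NUBPL (4.54 TPM on average), IBA57, a factor for late cluster maturation, and BOLA1. IBA57 was at 2.27, 2.2 and 2.25 TPM in −Dox and 2.64, 2.36 and 2.58 TPM in +Dox, and BOLA1 at 0.0735, 0.125 and 0.0838 TPM in −Dox and 0.0664, 0.103 and 0.162 TPM in +Dox. The highest tested member exceeded the lowest tested 132-fold in mean TPM. Of the 29 neighbouring pairs in the order of levels, 12 were apart in all libraries and 17 overlapped. Median mean TPM was 29.4 over the mitochondrial and 25.7 over the cytosolic members.

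**Figure D2:**
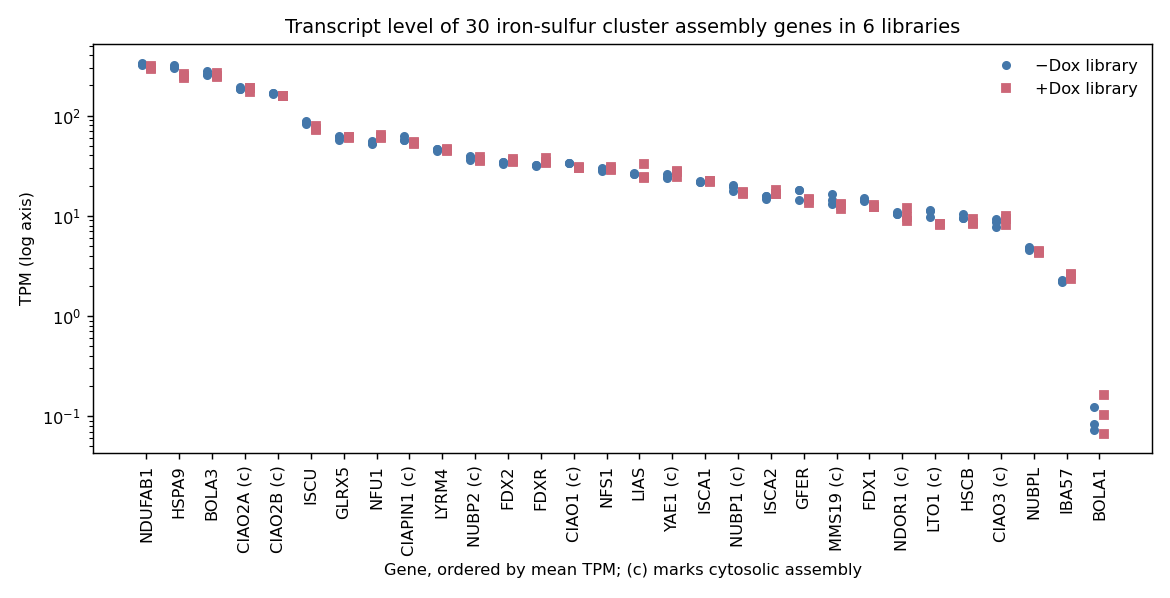
TPM (log axis) of the 30 assembly genes in each of 3 −Dox libraries (circles) and 3 +Dox libraries (squares), ordered by mean TPM, with cytosolic genes marked (c). NDUFAB1 and HSPA9 stand at the top and BOLA1, near 0.1 TPM, stands alone at the bottom.

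The core of the mitochondrial machinery did not pass the test. NFS1, the desulfurase that takes sulfur from cysteine, had a log2 fold change of 0.03 (SE 0.05) and its partner LYRM4 one of 0.00314 (SE 0.06). For NDUFAB1 the value was −0.11 (SE 0.06, edgeR adjusted p = 0.284). ISCU, the scaffold, was at 68.5, 77.8 and 77.8 CPM in −Dox and 66, 63.2 and 70.9 CPM in +Dox. The groups overlapped, with the lowest −Dox library below the highest +Dox library, and the log2 fold change of −0.16 (SE 0.06) had an adjusted p = 0.102 by edgeR. Without −Dox replicate 1 it was −0.22 with an adjusted p = 0.0165.

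The electron supply showed values of both signs. FDXR, which passes electrons from NADPH to the ferredoxins, was at 51.9, 57.7 and 56.5 CPM in −Dox and 64.1, 58.5 and 65.7 CPM in +Dox, all +Dox libraries above all −Dox libraries (log2 fold change 0.18, SE 0.06, edgeR adjusted p = 0.0596). FDX1, a ferredoxin that also serves steroid synthesis and lipoylation, was at 14.4, 14 and 15.1 TPM in −Dox and 12.2, 12.2 and 12.7 TPM in +Dox (log2 fold change of counts −0.17, SE 0.06, edgeR adjusted p = 0.0600). FDX2, the ferredoxin of cluster assembly, was higher in level, at 33.1, 34.5 and 34.6 TPM in −Dox and 37, 35 and 34.6 TPM in +Dox, with overlapping groups (log2 fold change 0.08, SE 0.08). Of the exon bases of FDX2, 73.4% also belong to a read-through gene on the same strand with a mean of 1.16 CPM.

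The chaperones of the transfer step included HSPA9, the member with the smallest p. HSPA9 was at 825, 813 and 784 CPM in −Dox and 680, 672 and 658 CPM in +Dox. Every +Dox library was below every −Dox library, by more than the spread within either group (807 ± 21.1 and 670 ± 11.2 CPM, SD, n = 3 each). Its log2 fold change was −0.27 (SE 0.04, 95% confidence interval −0.36 to −0.18, edgeR adjusted p = 0.00115), between −0.32 and −0.26 over the 17 settings. Its annotated pseudogene held 0.00139% as many counts. HSCB, the co-chaperone that brings the scaffold to HSPA9, was at 7.44, 8.6 and 7.43 CPM in −Dox and 6.21, 5.99 and 6.76 CPM in +Dox. Its groups did not overlap either, with a log2 fold change of −0.31 (SE 0.10, edgeR adjusted p = 0.0589). HSCB shares 20.2% of its exon bases with CHEK2 on the opposite strand, which had a log2 fold change of 0.05. GLRX5, the glutaredoxin that carries the new cluster onward, had a log2 fold change of 0.04 (SE 0.06).

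Genes of the late mitochondrial steps did not pass the test. NFU1, which delivers clusters to lipoate synthase and other recipients, was at 32.9, 37.9 and 35.1 CPM in −Dox and 39.8, 38.6 and 43.1 CPM in +Dox, without overlap (log2 fold change 0.20, SE 0.07, edgeR adjusted p = 0.0574). ISCA2, which acts with ISCA1 and IBA57, was at 14.9, 15.8 and 15.6 TPM in −Dox and 16.4, 16.6 and 18 TPM in +Dox (log2 fold change of counts 0.22, SE 0.08, edgeR adjusted p = 0.0709). It shares 3.4% of its exon bases with NPC2 on the opposite strand, which rose by a log2 fold change of 0.77 (adjusted p = 1.53e-05), and the part of this overlap in the value of ISCA2 was not tested. ISCA1 was at 22.1, 21.9 and 21.9 TPM in −Dox and 21.6, 22.1 and 22.1 TPM in +Dox, with a log2 fold change of 0.01 (SE 0.05). BOLA3, a partner of GLRX5 and NFU1 in delivery, was at 253, 278 and 262 TPM in −Dox and 248, 245 and 266 TPM in +Dox, with overlapping groups (−0.08, SE 0.08, as log2 fold change of counts). The log2 fold changes of IBA57 (0.02), NUBPL (−0.05), which serves complex I, and LIAS (−0.07), the lipoate synthase that is itself a cluster protein, lay within 0.07 of zero. On other scales they moved without passing the test, IBA57 to 0.21 with a transcript length offset and LIAS to 0.07 with that offset and −0.28 over protein-coding transcripts only. GFER, a sulfhydryl oxidase of the intermembrane space, had a log2 fold change of 0.00849 in counts but −0.23 on log2(TPM + 0.1), neither past the test (limma adjusted p = 0.223 for the latter).

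On the cytosolic side, 8 of 11 members had a negative log2 fold change, beside 8 of 18 mitochondrial members and 10295 of all 21045 genes tested, and LTO1 alone was called. Without −Dox replicate 1 the values of CIAO2A (−0.04) and CIAO3 (−0.03) were negative as well. The mitochondrial members LYRM4 (−0.03), GLRX5 (−0.02), IBA57 (−0.02) and GFER (−0.075) also turned negative in that setting. LTO1 and YAE1 form the adapter that recruits the cluster-targeting complex to ABCE1, the ribosome-recycling ATPase. LTO1 was at 15.7, 15.7 and 18 CPM in −Dox and 12.6, 14.7 and 13.3 CPM in +Dox. The groups did not overlap but came close, with the highest +Dox library less than 1 CPM below the lowest −Dox library. The log2 fold change was −0.28 (SE 0.08, 95% confidence interval −0.46 to −0.10, edgeR adjusted p = 0.0368). This call was lost without +Dox replicate 1 (adjusted p = 0.141), without +Dox replicate 3 (0.107), without −Dox replicate 2 (0.0538), without −Dox replicate 3 (0.152), with protein-coding transcripts only (0.15) and with the replicate number as a block (0.0535). Of its sequence, 6.31% of the exon bases of LTO1 overlap CCND1 on the opposite strand, and CCND1 fell by 0.98 on the log2 scale (adjusted p = 1.01e-05). The 15 of 18 LTO1 transcripts that share no base with CCND1 held 98.5% to 99.4% of LTO1 TPM in each library, and their sum was 11.2, 9.74 and 11.3 TPM in −Dox and 8.23, 8.24 and 7.96 TPM in +Dox, a ratio of 0.76, equal to that over all transcripts. YAE1, its partner, did not pass the test and was at 13.3, 14.2 and 14.7 CPM in −Dox and 14.4, 14.9 and 15.6 CPM in +Dox (log2 fold change 0.09, SE 0.07). ABCE1 was at 483, 484 and 465 CPM in −Dox and 412, 450 and 453 CPM in +Dox, all lower, with a log2 fold change of −0.12 (SE 0.05) that did not pass the test (edgeR adjusted p = 0.114). It shares 4.41% of its exon bases with OTUD4 on the opposite strand, which fell by 0.29 (adjusted p = 0.00293).

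**Figure D3:**
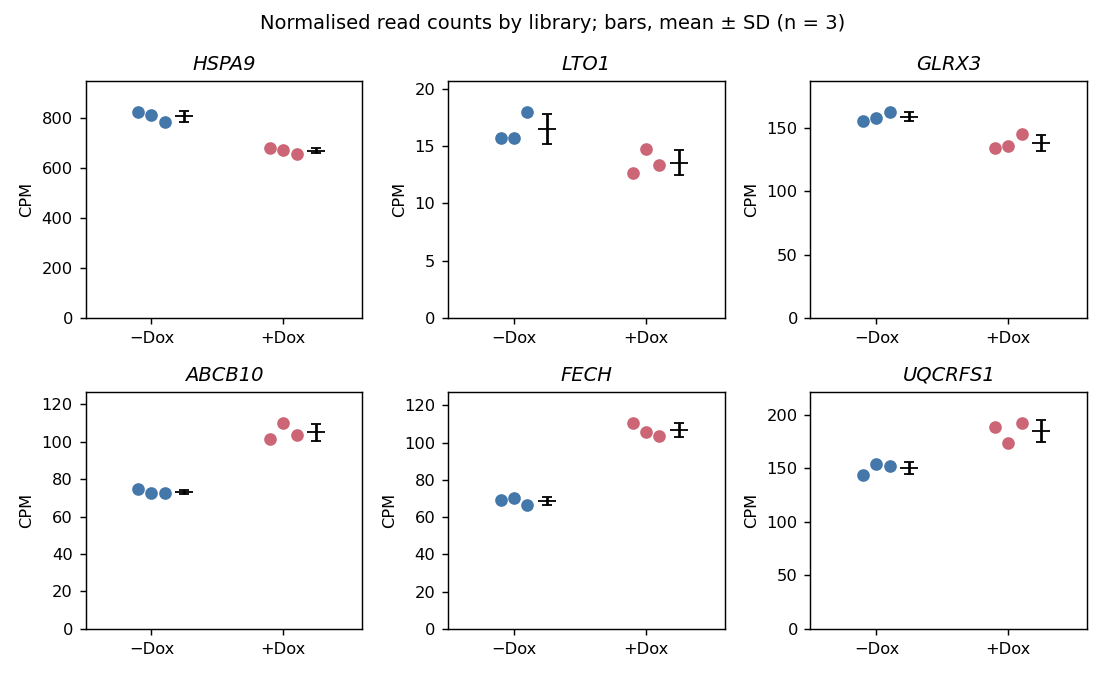
CPM by library for HSPA9 and LTO1, for GLRX3 and ABCB10 among partner genes, and for the recipients FECH and UQCRFS1, with points for the 3 −Dox and 3 +Dox libraries and bars for mean ± SD, each axis starting at 0. In each panel the groups do not overlap, with HSPA9, LTO1 and GLRX3 lower and ABCB10, FECH and UQCRFS1 higher in +Dox. The genes shown were taken from those called, and 33.2% of all genes tested had groups without overlap.

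None of the other cytosolic factors was called. The scaffold genes NUBP1 and NUBP2 and the electron donors CIAPIN1 and NDOR1 were all below zero, at −0.14 (SE 0.07), −0.07 (SE 0.08), −0.11 (SE 0.05) and −0.16 (SE 0.07) on the log2 scale. The lowest adjusted p among the 4 was 0.134, for NDOR1. With a transcript length offset NDOR1 was at −0.02 (edgeR adjusted p = 0.918) and NUBP2 at −0.01, with NUBP1 at −0.14 and CIAPIN1 at −0.11. Of NDOR1's exon bases 36% belong to a second gene on the same strand, which rose by 0.68 (adjusted p = 0.00475), and how reads were divided between them was not tested. NUBP1 was at 19.4, 17.6 and 20.2 TPM in −Dox and 17.3, 16.5 and 16.8 TPM in +Dox, and NUBP2 at 36.4, 39.5 and 38.3 TPM in −Dox and 39.1, 35.4 and 36.2 TPM in +Dox. The targeting complex of CIAO1 (−0.09, SE 0.05), CIAO2B (−0.09, SE 0.06) and MMS19 (−0.14, SE 0.06), which hands clusters to DNA polymerases and helicases, stood below zero as well, while CIAO3 (0.07, SE 0.09), which links it to the scaffold, did not. CIAO2B was at 164, 169 and 169 TPM in −Dox and 158, 156 and 157 TPM in +Dox, each +Dox library below each −Dox library in TPM but not in CPM. CIAO2A, its paralog, which matures the iron-regulatory aconitase ACO1, was at 183, 184 and 194 TPM in −Dox and 173, 189 and 191 TPM in +Dox, with a log2 fold change of 0.00351 (SE 0.05). CIAO3 shares 21.5% of its exon bases with HAGHL on the opposite strand. Over protein-coding transcripts only, CIAO3 was at 0.305 on the log2 scale (edgeR adjusted p = 0.0937). On that setting CIAO1 was at −0.03, MMS19 at −0.08 and CIAO2B at −0.10.

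In the mitochondrial and the cytosolic list, 1 of 18 tested mitochondrial members (5.56%) and 1 of 11 cytosolic members (9.09%) were called, against 15.8% of all genes. The median log2 fold change was 0.00582 over the mitochondrial and −0.09 over the cytosolic members, beside 0.00613 over all genes tested. With 1 library left out the mitochondrial median lay between −0.028 and 0.00909, and without −Dox replicate 1 the cytosolic median was −0.14. Summed TPM of the mitochondrial members was 1326, 1371 and 1360 in −Dox and 1239, 1252 and 1275 in +Dox, a ratio of means of 0.928, and that of the cytosolic members 568, 567 and 585 in −Dox and 534, 553 and 548 in +Dox, a ratio of 0.951. Both sums were lower in every +Dox library. On log2(TPM + 0.1) the median over all genes tested was itself −0.03. HSPA9 held 22% to 24% of the mitochondrial sum in −Dox and 18.7% to 20.6% in +Dox, and without it the mitochondrial ratio was 0.965, with sums of 1008, 1067 and 1060 TPM in −Dox and 993, 995 and 1037 TPM in +Dox that overlapped between the groups. The ratio of the mitochondrial to the cytosolic sum was 2.36 ± 0.0504 in −Dox and 2.30 ± 0.0323 in +Dox (SD, n = 3 each), with overlapping values. Since the members are not replicates, no test was made of these lists.

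The members also differ in where they lie. On chromosome 16 were 7 of the 30, namely 5 of the 11 cytosolic genes (CIAO2B, CIAO3, NUBP1, NUBP2 and CIAPIN1) and 2 of the 19 mitochondrial genes (NDUFAB1 and GFER). That chromosome held 4.83% of the protein-coding genes tested. None of the 7 was called, against 15.8% of all genes.

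Within the fixed pairs of genes, the ratio of TPM was compared in each library, with an exact permutation test whose smallest possible p at 3 against 3 is 0.1, so that no pair could pass. FDX1 to FDX2 had a log2 ratio of −1.20, −1.30 and −1.20 in −Dox and −1.60, −1.52 and −1.44 in +Dox. All +Dox libraries were below all −Dox libraries, a difference of −0.29 (exact permutation p = 0.1, 0.25 adjusted over 5 pairs). ISCA1 to ISCA2 had a log2 ratio of 0.57, 0.47 and 0.48 in −Dox and 0.41, 0.41 and 0.30 in +Dox, again without overlap (difference −0.14, exact permutation p = 0.1, adjusted 0.25). For CIAO2A to CIAO2B (difference 0.07, exact permutation p = 0.3), NUBP1 to NUBP2 (−0.13, p = 0.3) and BOLA1 to BOLA3 (0.24, p = 0.7) the groups overlapped, and the last of these rests on the few counts of BOLA1 and was −0.36 over protein-coding transcripts only and −0.05 without +Dox replicate 3.

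**Figure D4:**
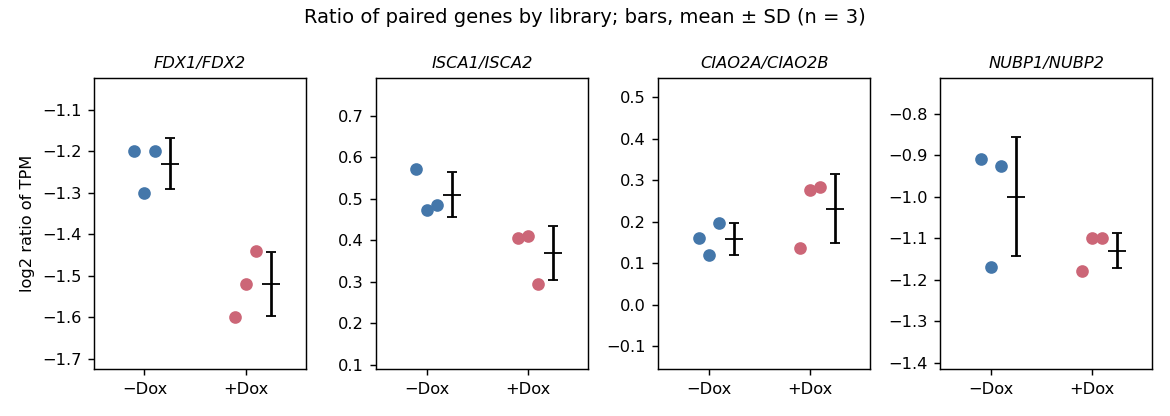
Log2 ratio of TPM (y axes of equal span, centred on each pair) in 3 −Dox and 3 +Dox libraries, with bars for mean ± SD. The groups do not overlap for FDX1/FDX2 and ISCA1/ISCA2 and overlap for the other pairs shown.

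Isoform make-up was followed as the share of a gene's TPM on each transcript. Of 298 annotated transcripts of the members, 86 from 25 genes could be tested, and none was called (limma, lowest adjusted p = 0.642), beside 0.0458% of 39294 transcripts of all genes. At an unadjusted p under 0.05 there were 7 of 86 (8.14%), against 7.2% of all transcripts. The smallest p belonged to HSCB-201, the main protein-coding transcript of HSCB, at 63.9%, 59.6% and 58% of HSCB TPM in −Dox and 39.3%, 36.6% and 53.3% in +Dox. Its groups did not overlap, although +Dox replicate 3 lay nearer the −Dox libraries than the other +Dox libraries did. The value of HSCB depended on how its transcripts were counted. Over protein-coding transcripts only, its log2 fold change was −0.60 (edgeR adjusted p = 0.0137), whereas it was −0.15 with a transcript length offset (edgeR adjusted p = 0.484), −0.15 by DESeq2 with length offsets (adjusted p = 0.490) and −0.16 by limma on log2(TPM + 1) (adjusted p = 0.271). GFER-202, a short transcript of 482 bases, held 33.9%, 40.2% and 38.1% of GFER TPM in −Dox and 29.8%, 30.2% and 25.8% in +Dox (limma adjusted p = 0.645). LIAS-202 held 24.8%, 21.7% and 23.3% of LIAS TPM in −Dox and 16.2%, 10.7% and 17.3% in +Dox. Neither passed the test, and their groups did not overlap. The transcripts named here were chosen for having the smallest p, so lack of overlap adds no support for a change in them. NFS1-213, a transcript without a defined coding sequence, held 8.19%, 4.92% and 6.62% of NFS1 TPM in −Dox and 9.06%, 13.3% and 12.1% in +Dox, and LTO1-211 held 16.5%, 11% and 17.3% of LTO1 TPM in −Dox and 20.4%, 20.9% and 25.1% in +Dox, again without overlap and not past the test. Protein-coding transcripts together held 86.7% of the mitochondrial and 87.8% of the cytosolic TPM in −Dox and 86.6% and 88.7% in +Dox.

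Partners of the machinery, from a fixed list of 11 genes, had 3 called (27.3%, against 15.8% of all genes). The number was 1 without +Dox replicate 1 (2421 of all 21106 genes tested) or +Dox replicate 2 (2486 of 20954). It was also 1 without −Dox replicate 3 (2365 of 21097) and with a transcript length offset (1882 of 21045). In each of these settings the share of partners called was near or below that of all genes. ABCB10, an inner-membrane transporter tied to mitochondrial iron import and haem synthesis, rose from 74.6, 72.6 and 72.8 CPM in −Dox to 101, 110 and 104 CPM in +Dox, a log2 fold change of 0.52 (SE 0.05, edgeR adjusted p = 2.24e-05). GLRX3, a cytosolic glutaredoxin that handles clusters with BOLA2, fell from 156, 158 and 163 CPM to 134, 136 and 146 CPM (−0.20, SE 0.05, adjusted p = 0.0141). SLC25A28, mitoferrin 2, fell from 12, 13 and 12.9 CPM to 10.7, 11.2 and 9.8 CPM (−0.26, SE 0.08, adjusted p = 0.0456), a call that held in 6 of 17 settings and was lost without any of the 3 +Dox libraries and without −Dox replicate 2 or 3. The call of GLRX3 held in 12 of 17 and was lost without +Dox replicate 1 (adjusted p = 0.0618), +Dox replicate 2 (0.0556) or −Dox replicate 3 (0.0622), with a transcript length offset (0.143) and by DESeq2 with length offsets (0.0961). SLC25A37, mitoferrin 1, was not called (0.11, SE 0.05). BOLA2 and BOLA2B are near-identical copies whose reads cannot be assigned with certainty, and their sum was 43.2, 59.1 and 49.9 CPM in −Dox and 44.3, 36.8 and 44.7 CPM in +Dox, with overlapping groups (exact permutation p = 0.3).

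Among recipients, 2 of 15 mitochondrial genes were called, both higher, a share (13.3%) near the 15.8% of all genes. The number was 4 by DESeq2 with length offsets, 3 of them higher, where 10.4% of all genes were called. It was also 4 by limma on log2(TPM + 1), 2 of them higher, where 7.54% of all genes were called. FECH, the ferrochelatase that ends haem synthesis and carries a cluster, rose from 69, 70.5 and 66.4 CPM to 111, 106 and 104 CPM, a log2 fold change of 0.64 (SE 0.05, edgeR adjusted p = 3.82e-06). UQCRFS1, the Rieske protein of complex III, rose from 143, 154 and 152 CPM to 189, 173 and 193 CPM (0.30, SE 0.05, adjusted p = 0.00187). The other 13, succinate dehydrogenase SDHB and the complex I subunits among them, had log2 fold changes from −0.16 (CDK5RAP1) to 0.19 (NDUFS7).

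Cytosolic and nuclear recipients had 10 of 22 tested genes called (45.5%, against 15.8% of all genes), 6 lower and 4 higher, with a median log2 fold change of −0.03. On other scales this count was 3 with a transcript length offset, beside 1882 of all 21045 genes tested. By limma on log2(TPM + 0.1) it was 1, beside 1634 of 21045, with a list median of −0.14. On that scale the share called was smaller than that of all genes. Omitting +Dox replicate 1 left 6 calls (2421 of all 21106 genes), and omitting +Dox replicate 3 left 6 (2283 of all 21060 genes). XDH, with almost no counts, was not tested. Median mean CPM was 46.6 over these recipients and 40.0 over the partners, against 5.57 over all genes tested. The part of this difference in level in the shares called was not tested. ERCC2, a helicase of nucleotide excision repair and transcription, fell from 42.3, 40.5 and 42.4 CPM to 34.1, 33.7 and 30.7 CPM (−0.34, SE 0.06, edgeR adjusted p = 0.00154). DPH2, which with a partner makes the diphthamide of an elongation factor, fell from 30.6, 33.3 and 36.3 CPM to 26.5, 27.2 and 26.7 CPM (−0.32, SE 0.07, adjusted p = 0.00559), and CDKAL1, a tRNA methylthiotransferase, from 38.1, 37.4 and 38.6 CPM to 32.2, 33.6 and 31.4 CPM (−0.23, SE 0.05, adjusted p = 0.0101). KIF4A, a chromokinesin, rose from 88.9, 87.9 and 89.7 CPM to 104, 99.4 and 106 CPM (0.21, SE 0.05, adjusted p = 0.00748), and DNA2, a nuclease and helicase of replication, from 100.4, 100.6 and 97 CPM to 108, 123 and 122 CPM (0.24, SE 0.06, adjusted p = 0.00939). Of these 5 genes, ERCC2 was called in 17 of 17 settings and the others in 14 of 17. On both limma scales the calls of DPH2, CDKAL1, KIF4A and DNA2 were lost. With a transcript length offset those of CDKAL1, KIF4A and DNA2 were lost, and over protein-coding transcripts only DPH2 was at −0.17 on the log2 scale (edgeR adjusted p = 0.0864). ACO1, the cytosolic aconitase that becomes the iron-regulatory protein without its cluster, was at 38.6, 36.3 and 35.2 CPM in −Dox and 37.8, 35.6 and 35.4 CPM in +Dox (−0.02, SE 0.06).

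**Figure D5:**
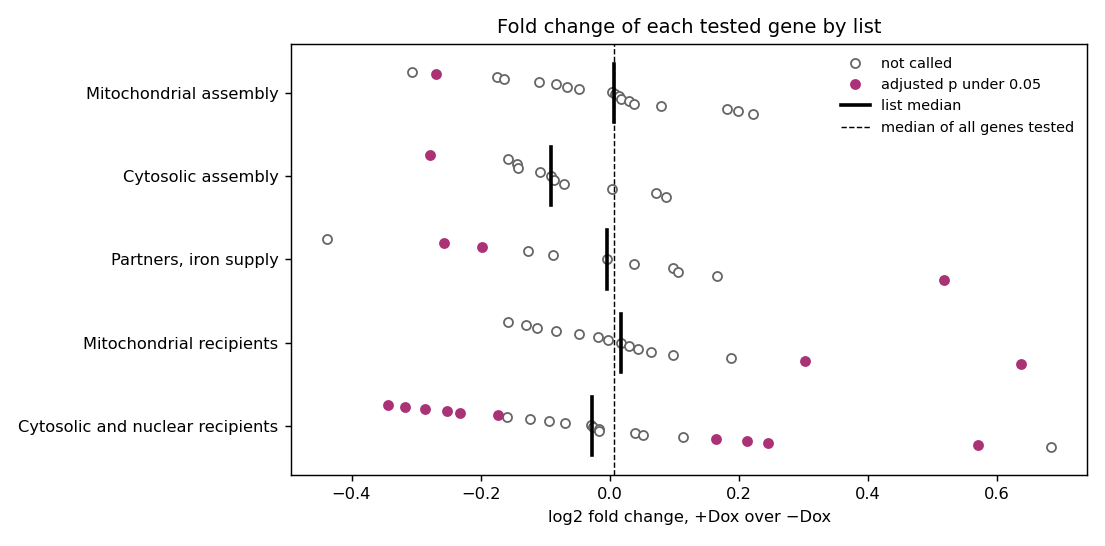
Log2 fold change (+Dox over −Dox, x axis) of each tested gene in the mitochondrial and cytosolic assembly lists and in 3 lists of partners and recipients, with filled points for an adjusted p under 0.05, vertical bars for list medians and a dashed line for the median of all genes tested. The assembly lists hold 1 filled point each, and the cytosolic and nuclear recipients hold 10, on both sides of zero.

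As a reference from the same organelle, nuclear genes of the mitochondrial ribosome had 20 of 78 called (25.6%), all lower, with a median log2 fold change of −0.12, against 15.8% of all genes called and 7.68% called lower. The number called was 7 without +Dox replicate 2 (2486 of all 20954 genes tested) and 7 without −Dox replicate 2 (2267 of 21098). Both are smaller shares than of all genes called in either direction. They are larger than the shares of all genes called lower (1146 and 1067 genes in these 2 settings). It was 9 without −Dox replicate 3 (2365 of 21097), 10 without +Dox replicate 1 (2421 of 21106) and 35 without −Dox replicate 1 (3313 of 20965). With a transcript length offset it was 8 (1882 of 21045), and with the replicate block 10 (2490 of 21045). None was called higher in any of the 17 settings. Their summed TPM was 7732, 8114 and 8024 in −Dox and 7359, 7206 and 7409 in +Dox. Protein genes of the mitochondrial genome had 4 of 13 called (30.8%, against 15.8% of all genes), 3 higher and 1 lower, with a median of 0.00724. The number was 2, both higher, with the replicate block (2490 of all 21045 genes) and by limma on log2(TPM + 1) (1586 of 21045). Median mean CPM was 78.2 over the mitochondrial ribosome and 5527 over the mitochondrial genome, against 5.57 over all genes tested.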

How the data were processed

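Polyadenylated RNA was sequenced as paired-end reads of 150 cycles. Salmon 1.10.2 was run by the authors, whose deposited tables list every transcript with its estimated count, unnormalised, and its TPM. The deposited TPM is scaled for effective length and for depth. The strand and index settings are not given in the sources used here, so genes with overlapping exons or near-identical copies are uncertain. Of 252045 transcripts, 251612 matched GENCODE 44 (GRCh38), 433 did not, and unmatched transcripts held 0.125% to 0.138% of counts.

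Estimated counts were summed per gene and rounded. The gene test took the 21045 genes whose mean count exceeded 10 and used edgeR 4.0.16 (quasi-likelihood, TMM) in R 4.3.3, two-sided, with Benjamini-Hochberg adjustment over all genes tested. Transcript shares of 5% to 95%, in genes of at least 1 TPM, were tested with limma 3.58.1 on log ratios with a pseudocount of 0.1 TPM. On simulated counts with 200 genes changed by 1.5 on the log2 scale the gene test called 198 of them and 22 unchanged genes. The transcript test called 14.5% of shares moved by 1.5 and 78% of those moved by 3. Changed genes were drawn only from genes of higher count, and changed shares only from genes of higher TPM. Differences as small as those of the members were not simulated, so these rates do not give the power for them. Paired genes were compared by exact permutation with scipy 1.17.1. Alternatives were DESeq2 1.42.0 (also with length offsets), edgeR with RLE size factors, a length offset, other count filters, protein-coding transcripts only or a replicate block, limma on log2(TPM + 0.1) and log2(TPM + 1), other share settings, and the omission of single libraries.

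The members, the lists of partners, recipients, the mitochondrial ribosome and genome and the cell type markers, the tests and the alternatives were chosen with earlier results of these data known. Per-library values were given for called members, both genes of each pair and the 2 highest and 2 lowest members, for up to 5 called genes of each list of partners and recipients, and for the 5 transcripts of smallest p. Values of other members and of SLC25A37, ACO1 and ABCE1 were added after they were seen. Some genes of the lists and marker sets and 1 promoter window are not reported here. No other batch is given in the labels.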

Additional observations from a re-analysis of the deposited data

How the results depend on the processing

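The number of genes called was 3333, 1717 of them higher (51.5%). It was 1882 with a transcript length offset, 1634 by limma on log2(TPM + 0.1), of which 636 (38.9%) were higher, and 1586 on log2(TPM + 1). Leaving out a library gave 2267 to 3313. Members called numbered 7 by DESeq2, 7 with every gene of any count, 1 with the replicate block, and 1 to 3 without a library. Mitochondrial members called were 6, 6 and, with protein-coding transcripts only, 3, and 1 to 2 without a library. Cytosolic members called were 0 with protein-coding transcripts only, 0 with the block, and 0 to 1 without a library. The cytosolic median log2 fold change was −0.14 to −0.0686 without a library. The mitochondrial ratio of summed TPM was 0.965 without HSPA9, a setting chosen after seeing the data. Called transcript shares in all genes (18) were 56 on estimated counts, 6 in genes of at least 5 TPM, 0 with the replicate block, and 4 to 16 without a library. No member transcript was called in any of these settings. The log2 ratio difference was −0.21 for ISCA1/ISCA2 on estimated counts and −0.36 for BOLA1/BOLA3 on protein-coding transcripts. The cause of these differences was not tested.

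PCBP1 and the called members, partners, recipients and erythroid markers that are named kept their direction in the 17 settings, and TAL1 was called in 15 of them. The settings were not tabulated for genes given for an overlap, such as CCND1. Of members not called, 6 (FDX1, FDXR, HSCB, ISCA2, ISCU and NFU1) passed in at least 1 setting, and 10 changed sign without passing. Same-numbered libraries did not deviate together (correlations 0.0071, −0.0603 and −0.0026). This shows no large shared deviation but cannot tell whether cultures were handled in pairs, which the labels do not state. The block moved the genes called from 3333 to 2490. BOLA1, at 4 to 10 counts per library, was left out by the count filter. The simulated transcript test called 14.5% of shares moved by 1.5 and 78% of those moved by 3. Differences of these sizes or smaller can thus be missed.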
